A study of Mus musculus with 6 samples.

Results

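The 123 genes described here encode the subunits of sodium, potassium and calcium channels and of the channels gated by hyperpolarization and cyclic nucleotides. They were found by their names among the 19613 genes of the array table, as sodium channel subunits (Scn), potassium channel subunits (Kcn), calcium channel subunits (Cacna, Cacnb and Cacng) and Hcn genes, a rule that uses no measured value. They comprised 13 sodium channel genes, 24 calcium channel genes, 35 pore-forming subunits of voltage-gated potassium (Kv) channels, 9 auxiliary subunits of Kv channels, 11 genes of calcium- and sodium-activated potassium channels, 14 inward rectifiers (Kir), 13 leak channels with a tandem pore domain (K2P) and 4 Hcn genes. The naming rule thus reached past the voltage-gated channels, because the Kir and K2P channels and the small-conductance calcium-activated channels lack a working voltage sensor, and 30 of the 123 genes encode auxiliary subunits and not pores.

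The channels were measured on 6 Affymetrix mouse exon arrays, one per RNA sample, of embryoid bodies with motor neurons. Embryoid bodies are aggregates of differentiating embryonic stem cells. These came from the HBG3 HB9 ES line, a single mouse line in which eGFP is driven by the promoter of Hb9 (Mnx1), a gene of motor neurons, and were patterned towards the ventral spinal cord with retinoic acid and a Hedgehog agonist. Per the study's methods, whole aggregates were harvested and only a part of their cells carried the reporter, so each value is an average over motor neurons and other cells. The cells of all 6 arrays had been exposed to blood fluid of male carrier mice of strain B6CBA-Tg(HDexon1)62Gpb/3J, a Huntington's disease model with a fragment of the human huntingtin gene, taken before the onset of symptoms. The labels call this fluid plasma, whereas the series title and the methods call it serum. The cells themselves carried no huntingtin transgene. In the study this group asked how specific an assay for another disease was. With a single group and no control arrays analysed here, nothing below is an effect of the fluid: the values describe which channels were above background in these cultures and how they varied from array to array.

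Voltage-gated channels open when the membrane potential changes. Sodium channels carry the upstroke of the action potential, Kv channels end it and set the firing pattern, and calcium channels couple electrical activity to transmitter release, to gene expression and to other channels. Inward rectifiers and leak channels hold the resting potential, calcium-activated potassium channels shape the pause after a spike, and Hcn channels depolarize a cell that has become too negative. In each class a pore-forming subunit works with auxiliary subunits that alter its gating or its delivery to the membrane, and developing neurons exchange embryonic for adult members as they begin to fire.

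Levels are given as log2 of the deposited intensity, with the SD over the 6 arrays (n = 6 throughout). The background was taken from 1032 olfactory receptor genes, few of which have a known use outside the nose: the 95th percentile of their mean levels, 7.47, was the background level, and the median of these genes was 5.54. A gene was called above or below background when its mean differed from this level by limma's test over all genes at an adjusted p of 0.05, with the level treated as fixed, and was otherwise not resolved. The study describes separate serum samples for this group, so the spread between arrays can include differences between sera. Nothing says that each came from a culture grown separately, and the p-values measure the spread between these samples. Replicate 8 was the lowest array at the low end of the scale, by its mean over the olfactory receptor genes (5.52, against 5.56 to 5.68 in the other arrays). The effect of replicate 8 on the main results is given below. The study screened its batches for outlying arrays, and if this set was screened too, its spread had already been trimmed. Against the label, all 6 matched motor neuron markers and all 7 matched pan-neuronal markers were above background, among them Isl1 at 10.33 ± 0.12 and Tubb3 at 12.81 ± 0.076. Of markers of other cells, 3 of 5 heart muscle, 3 of 5 skeletal muscle, 3 of 6 astrocyte and oligodendrocyte and 1 of 4 pluripotent markers were above background. The same test called 63.1% of all genes above background, so these counts alone do not show which cells were present.

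Of the 123 channel genes, 82 were above background (66.7%), 32 were below it and 9 were not resolved. Over all 19613 genes the same test called 63.1% above and 32.5% below, so the channels as a whole lay near the share of the table. The median level of the channels was 8.15, beside 8.26 over all genes. By the mean alone, with no test, 87 channels were above, beside 65.2% of all genes. On single arrays, 79 channels were above the background level on all 6 arrays (64.2%, beside 61.6% of all genes), 31 were above it on none (25.2%, beside 31.6%), and 13 changed sides between arrays (10.6%, beside 6.77%). The classes differed in their counts: 20 of 24 calcium channel genes, 10 of 11 calcium- or sodium-activated potassium channel genes and all 4 Hcn genes were above background, but 5 of 14 inward rectifiers and 4 of 9 Kv auxiliary genes. Kv pore-forming subunits (23 of 35), K2P channels (9 of 13) and sodium channel genes (7 of 13) were nearer the share of the whole table. The median level of a class ran from 7.18 in inward rectifiers to 8.92 in calcium channels. By role, 22 of 30 auxiliary and 60 of 93 pore-forming genes were above. No test was made between classes, since genes are not replicates. The height of the background level set these counts more than any array did: at the 99th percentile of the olfactory receptor genes, 8.33, 47 channels were above (38.2%), beside 46.8% of all genes, and at the 90th percentile, 7.05, 93 were (75.6%, beside 70.6%). The order of the channels and the whole table thus changed with the level chosen.

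**Figure D1:**
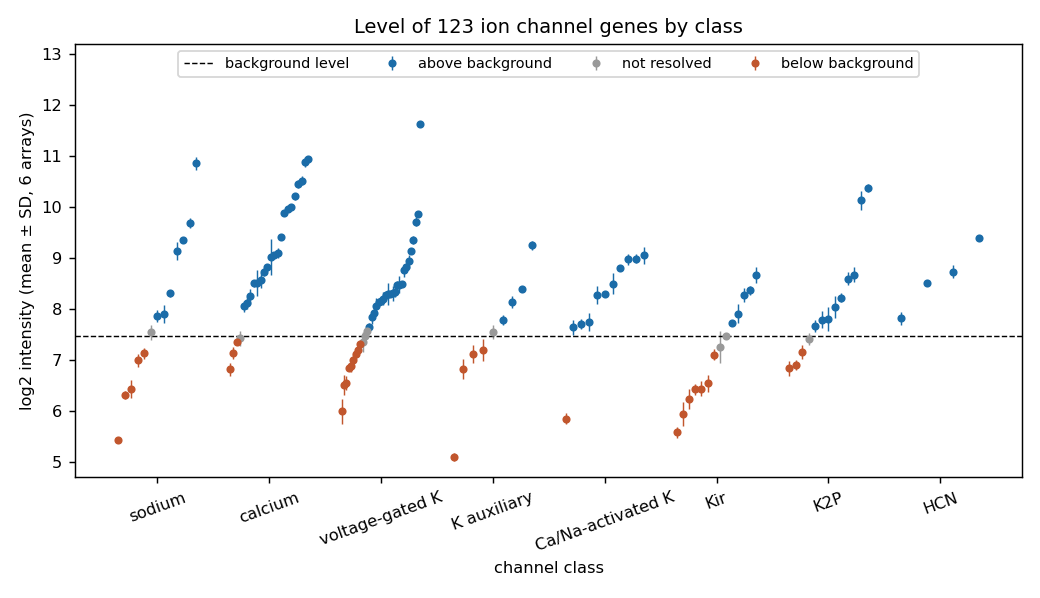
Mean log2 intensity of each of the 123 channel genes, grouped by class on the x axis and ordered by level within a class. Points are means over 6 arrays, bars are SDs, the dashed line is the background level of 7.47, and colours give the call. Every class but Hcn has members on both sides of the line.

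**Figure D2:**
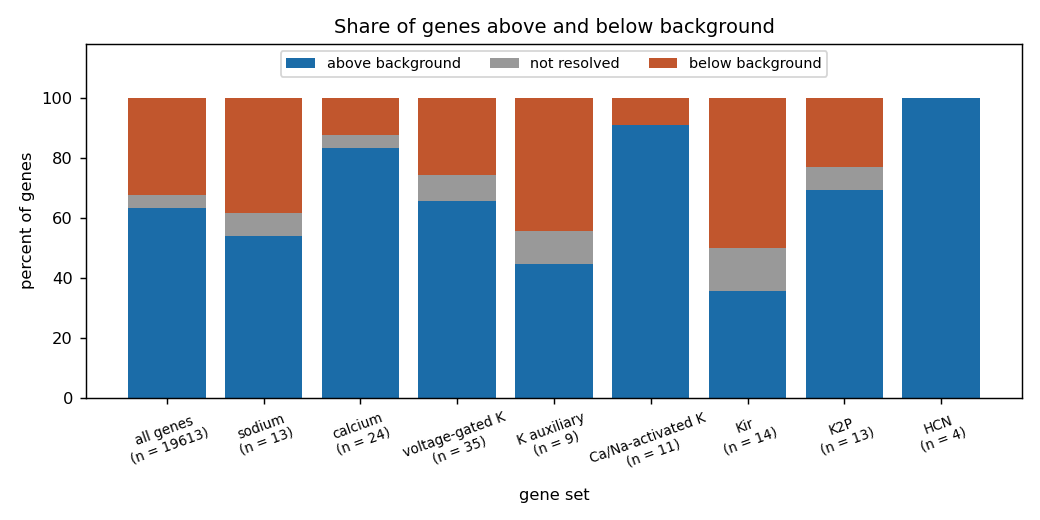
Percent of genes above background, not resolved and below background, for all genes of the table and for each channel class, with the number of genes under each bar. The share above background runs from 35.7% in inward rectifiers to 100% in the 4 Hcn genes, beside 63.1% of all genes.

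Among sodium channels, the pore-forming alpha subunits Scn3a and Scn8a were above background, and the adult neuronal Scn1a was below it. Of 9 alpha subunits 5 were above (55.6%, beside 63.1% of all genes), 3 were below and 1 was not resolved. Scn3a (Nav1.3), the alpha subunit typical of embryonic neurons, ranged over the arrays from 9.58 to 9.83 with a median of 9.68, and its mean of 9.69 ± 0.10 exceeded the level of 79.0% of all genes (limma adjusted p = 7.16e-14 against background). Scn8a (Nav1.6), the main subunit of mature nodes and axon initial segments, ranged from 9.30 to 9.39 with a median of 9.36 (adjusted p = 8.39e-15). Both lay well above background on every array, but Scn8a hardly moved between arrays while Scn3a was highest in replicate 8 and lowest in replicate 4. Scn9a (Nav1.7), best known from pain-sensing and sympathetic neurons, ranged from 8.93 in replicate 4 to 9.35 in replicate 8 (mean 9.14 ± 0.18). In these whole cultures, fewer cells that express a channel and less of its RNA per cell cannot be told apart.

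The remaining alpha subunits lay closer to background or below it. Scn10a, a subunit of sensory neurons, was above background at 7.91 ± 0.17. The skeletal muscle subunit Scn4a was not resolved (7.54 ± 0.15, adjusted p = 0.206), with 5 of 6 arrays above the background level and replicate 8 under it. Scn1a, which takes over from Scn3a after birth in many neurons, was below background on all 6 arrays (6.83 to 7.16, adjusted p = 4.80e-06), as were Scn11a at 6.32 and the atypical Scn7a at 5.44. Alpha subunits are close in sequence, and how signal common to such paralogs was handled is not given in the sources used here, so their single levels are uncertain to that extent. The row named Scn2a1, an older name of Scn2a (Nav1.2), fell outside the naming rule and was above background at 8.77 ± 0.10. With the rule applied to current symbols it would be the only gene added.

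The sodium channel beta subunits, which hold alpha subunits in the membrane and act as adhesion molecules, lay on both sides of the background level. Scn3b ranged from 10.70 to 11.00 with a median of 10.90, and its mean of 10.86 ± 0.13 was the highest of the sodium channel genes (adjusted p = 6.28e-15). Scn3b was lowest in replicate 4 and highest in replicate 8, the same order at both ends as Scn3a and Scn9a. Scn2b was above background at 7.86 ± 0.12, whereas Scn4b (6.44 ± 0.17), a subunit linked to fast-firing neurons, was below it. The intensity of a gene depends on its probes, so an order of levels between genes is an order of intensities and not of transcript amounts.

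Of 24 calcium channel genes, 17 were still above background at the 99th percentile of the olfactory receptor genes, beside 46.8% of all genes. This was the largest count of any class but not the largest share, since 3 of 4 Hcn genes were above. Of 10 pore-forming genes 7 were above background, and the 3 that were below it were all L-type. The T-type channels, which open near the resting potential and are abundant in developing neurons, were all above: Cacna1g (Cav3.1) ranged from 10.86 to 10.98 with a median of 10.94 (mean ± SD 10.94 ± 0.040, adjusted p = 2.63e-17). Cacna1h (Cav3.2) ranged from 10.35 to 10.55 with a median of 10.45. The mean of Cacna1g exceeded the level of 94.2% of all genes. Cacna1i (Cav3.3) was nearer to background at 8.05 ± 0.11.

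The presynaptic channels that trigger transmitter release were above background as well. Cacna1b (N-type) ranged from 9.92 to 10.01 with a median of 9.96, and its SD of 0.034 was the second smallest among channels above background. Cacna1a (P/Q-type) ranged from 9.36 to 9.49 (mean 9.41 ± 0.050) and Cacna1e (R-type) reached 9.27 in its highest array (mean 9.10 ± 0.10). None of their arrays came near the background level. Among L-type channels, which couple activity to contraction and to gene expression, Cacna1c was above background at 8.82 ± 0.070. Cacna1d (Cav1.3), the other L-type channel of neurons, lay just below (7.35 ± 0.051, adjusted p = 0.015), and that call was lost when replicate 2, 4, 6 or 7 was left out (adjusted p = 0.0579, 0.0527, 0.146 and 0.115) or when vomeronasal and taste receptor genes joined the background (0.152). The skeletal muscle channel Cacna1s (7.14 ± 0.12) and the retinal channel Cacna1f (6.82) were below background.

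Auxiliary calcium channel genes were above background in 13 of 14 cases, beside 63.1% of all genes. The extracellular alpha2delta subunits bring channels to the surface and are bound by gabapentin: Cacna2d1 reached 10.01 ± 0.055 and Cacna2d2 8.73 ± 0.084, while Cacna2d4 was not resolved at 7.43 ± 0.15. All 4 intracellular beta subunits, with which high-voltage-activated channels assemble, were above, led by Cacnb3 at 10.52 ± 0.088 and Cacnb1 at 9.88 ± 0.055, with Cacnb2 at 9.07 ± 0.049 and Cacnb4 at 8.50 ± 0.077. All 7 gamma genes were above. Most of these encode transmembrane AMPA receptor regulatory proteins, which escort glutamate receptors and need not act on calcium channels. Cacng4 ranged from 10.77 to 11.02 with a median of 10.87, and Cacng7 reached 10.21 ± 0.069. Cacng1, the gamma subunit of the skeletal muscle channel, was above background at 8.51 ± 0.26 although its pore-forming partner Cacna1s was not. Cacng1 was lowest in replicate 8, 1.65-fold under its highest array on the linear scale, with 8.50 to 8.73 in the other arrays, and the mean of the 3 skeletal muscle markers above background (Acta1, Myod1 and Ckm) was lowest in the same array (7.78, beside 8.01 to 8.27). Replicate 8 also had the lowest mean of the heart muscle markers above background (7.70) and of the olfactory receptor genes (5.52). Whether other cell types played a part in the Cacng1 values was not tested.

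Voltage-gated potassium channels lay on both sides of the background level. Of the Kv3 genes, fast delayed rectifiers that let neurons fire at high rates, Kcnc1 was above background at 8.49 ± 0.049, Kcnc2 at 8.31 ± 0.14 and Kcnc4 at 8.17. In the Kv1 subfamily, whose members sit along axons and set the threshold, 4 of 7 were above: Kcna3 at 9.36 ± 0.076, Kcna2 at 8.47 ± 0.091, Kcna5 at 8.30 ± 0.21 and Kcna1 at 7.84 ± 0.14. Kcna6, Kcna7 and Kcna4 were below (6.55 to 7.12). Both Kv4 genes measured, which carry the transient A-type current of dendrites, were above, Kcnd3 at 9.14 ± 0.055 and Kcnd1 at 8.15 ± 0.045.

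The Kv7 genes give the M-current, a slow brake on repetitive firing that muscarinic receptors close. Kcnq3, a subunit of this current, ranged from 8.73 to 8.92 with a median of 8.81 (mean 8.82 ± 0.075, adjusted p = 2.94e-12). It was lowest in replicate 4 and highest in replicate 7. Kcnq5 lay nearer background at 7.66, and the cardiac and epithelial Kcnq1 was below it (7.02 to 7.29 over the arrays). In the ether-a-go-go family 4 of 7 were above, with Kcnh2 (ERG1), known for its role in cardiac repolarization and also found in neurons, at 9.72 ± 0.083, and Kcnh4 and Kcnh6 at 8.30 ± 0.034 and 8.27 ± 0.065. Kcnh1 (7.31 ± 0.072, adjusted p = 0.00414), Kcnh7 and Kcnh5 were below. Of 9 silent subunits, which form no channel alone and modify Kv2, 4 were above (Kcns3 at 8.93 ± 0.14, Kcng3 at 8.48 ± 0.17, Kcnv1 at 8.34 ± 0.10 and Kcns2), Kcnv2 and Kcnf1 were below, and Kcng1, Kcns1 and Kcng4 were not resolved.

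Auxiliary subunits of Kv channels divided by family. The cytoplasmic partners were mostly above background: both Kv beta genes (Kcnab2 at 8.40 ± 0.040 and Kcnab3 at 7.79 ± 0.097), which bind Kv1, and 2 of 3 KChIP genes, calcium sensors that bind Kv4 (Kcnip1 at 9.25 ± 0.082 and Kcnip3 at 8.14 ± 0.12, with Kcnip2 not resolved). By contrast all 4 KCNE genes, small membrane proteins best known with Kcnq1 in heart and epithelia, were below background, with Kcne3 the lowest at 5.10 ± 0.085, Kcne1 at 6.82 and Kcne4 at 7.11. Kcne2 crossed the background level in a single array, at 7.54 in replicate 5. With the background at the 90th percentile, 7.05, the means of Kcne2 and Kcne4 were above the level, as was that of Kcnq1.

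Calcium- and sodium-activated potassium channels were above background in 10 of 11 cases, beside 63.1% of all genes. With the background at the 99th percentile of the olfactory receptor genes, 5 of the 11 were above, beside 46.8% of all genes. Kcnma1, the pore of the large-conductance BK channel that links calcium entry to spike repolarization, ranged from 8.89 to 9.10 with a median of 8.96 (mean 8.99 ± 0.089, adjusted p = 1.90e-12). Its beta subunits were all above: Kcnmb1, usually described in smooth muscle, at 9.05 ± 0.16, Kcnmb2 at 8.27 ± 0.17 and the neuronal Kcnmb4 at 7.64 ± 0.14, with 5 of 6 arrays over the background level. The small-conductance SK genes produce the afterhyperpolarization that paces motor neuron firing. Kcnn3 reached 8.98 ± 0.10, Kcnn1 8.81 ± 0.054 and Kcnn2 8.30 ± 0.063, while Kcnn4, known from blood cells and epithelia, lay nearer background at 7.75 ± 0.18. The sodium-activated Kcnt2 and Kcnt1 were above at 8.49 ± 0.21 and 7.71 ± 0.092, and Kcnu1, a gene of sperm, was the one below (5.85).

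Inward rectifiers had the smallest share above background (35.7%), whereas the share of K2P leak channels (69.2%) was near that of all genes (63.1%). Of 14 inward rectifiers 5 were above: Kcnj12 at 8.67 ± 0.16, the G-protein-gated Kcnj9, Kcnj5 and Kcnj3 at 8.37 ± 0.095, 8.28 ± 0.14 and 7.73 ± 0.062, and Kcnj11, the pore of the ATP-sensitive channel, at 7.91 ± 0.19. Below background were Kcnj2 and Kcnj4 (6.54 and 7.11), with Kcnj15, Kcnj16, Kcnj14, Kcnj13 and Kcnj1. The glial Kcnj10 sat on the background level itself (7.47 ± 0.060, adjusted p = 0.993), and the vascular Kcnj8 was not resolved, with 7.57 in replicate 5 and 6.66 in replicate 8. Only 1 inward rectifier, Kcnj12, was still above with the background at the 99th percentile.

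Among the K2P channels, which give the background conductance of resting cells, Kcnk13 and Kcnk12, a closely related pair whose members can form channels together, held the highest intensities. Kcnk13 ranged from 10.29 to 10.49 with a median of 10.35 (mean 10.37 ± 0.080, adjusted p = 1.36e-15), and Kcnk12 from 9.85 in replicate 8 to 10.39 in replicate 5 (mean 10.13 ± 0.19). The acid-sensitive Kcnk3 (TASK-1), a leak channel of motor neurons, ranged from 8.50 to 8.84 (mean 8.68 ± 0.14). The TREK channels Kcnk10 and Kcnk2, which respond to stretch and lipids, were above at 8.60 ± 0.13 and 8.23, followed by Kcnk7, Kcnk15, Kcnk4 and Kcnk1 (7.67 to 8.04). Kcnk18, Kcnk5 and Kcnk16 were below and Kcnk6 was not resolved. Among Hcn genes, whose channels carry the hyperpolarization-activated cation current, Hcn4 was above background at 9.40 ± 0.065, Hcn2 at 8.74 ± 0.12 and Hcn3 at 8.51 ± 0.030.

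The 3 channels nearest above the background level by mean were Kcnj10 (7.47), Kcns1 (7.48) and Scn4a (7.54), and the 3 nearest below were Cacna2d4 (7.43), Kcnk6 (7.41) and Kcng4 (7.36). These 6 genes were all not resolved. Proteins that anchor or assemble these channels were examined as a list of 20, of which 16 were matched. Of the 16, 14 were above background, beside 63.1% of all genes. They included the axon initial segment proteins Ank3 at 11.26 ± 0.061 and Nfasc at 10.33, and Ank2 at 11.45. Also above were the Kv4 partner Dpp6 at 10.01 ± 0.073 and the sodium leak channel Nalcn at 7.96 ± 0.036 with its partners Unc79, Unc80 and Fam155a. Below background were Dpp10 (7.22) and Lgi1 (6.04), a secreted partner of Kv1. Rest, a repressor of neuronal genes that include channels, was above background at 8.59 ± 0.097.

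Channel genes often lie side by side in the genome, and by the gene order of a RefSeq table of the mouse assembly GRCm38.p6 neighbours did not always share a call. On chromosome 2 Scn3a and Scn2a were both above background, but Scn9a was above between Scn1a and Scn7a, which were below. On chromosome 9 Scn10a was above next to Scn11a below, Scn2b was above next to Scn4b below, and Kcnj5 above next to Kcnj1 below. On chromosome 6 Kcna5 and Kcna1 were above and Kcna6 was below. The 3 gamma genes Cacng1, Cacng4 and Cacng5 on chromosome 11, Cacng7 and Cacng8 on chromosome 7, and Kcna3 and Kcna2 on chromosome 3 were all above.

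Replicate error was compared with that of all genes. The median SD of the 82 channels above background was 0.096, beside 0.075 for all 12375 genes above background. With replicate 8 left out, the median SD of channels above background was 0.084, and the matching value for all genes is not given here. Spread falls with level on these arrays, so the genes were also divided into 4 equal bins of mean level. In the lowest bin the median SD was 0.12 for 35 channels and 0.10 for all genes, in the next 0.10 for 25 channels and 0.077, in the third 0.056 for 13 channels and 0.068, and in the highest 0.080 for 9 channels and 0.058. Channels thus had the larger median in 3 of the 4 bins. An SD over 0.2 was found in 6 of the channels above background (7.32%) and in 3.61% of such genes. Among genes not above background the order was the other way, with a median SD of 0.12 for 41 channels and 0.15 for all 7238 genes. No test was made of these differences.

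The widest spread was that of Cacng3, an AMPA receptor regulatory protein. It measured 9.38, 9.42, 8.91, 9.07, 8.44 and 8.92 in replicates 2, 4, 5, 6, 7 and 8 (SD 0.36, 1.97-fold from the lowest to the highest array on the linear scale). Replicates 2 and 4 were high and replicate 7 was low, so the spread did not rest on replicate 8. Cacng1 (SD 0.26), Kcnk15 (0.23), Kcna5 (0.21) and Kcnk7 (0.21) followed. Of these, Cacng1, Kcnk15 and Kcnk7 were lowest in replicate 8, and Kcna5 was highest in replicate 2 at 8.64 and lowest in replicate 6 at 8.06. The steadiest channels were Hcn3 (SD 0.030), Cacna1b (0.034) and Kcnh4 (0.034), each within 1.07-fold over the 6 arrays.

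**Figure D3:**
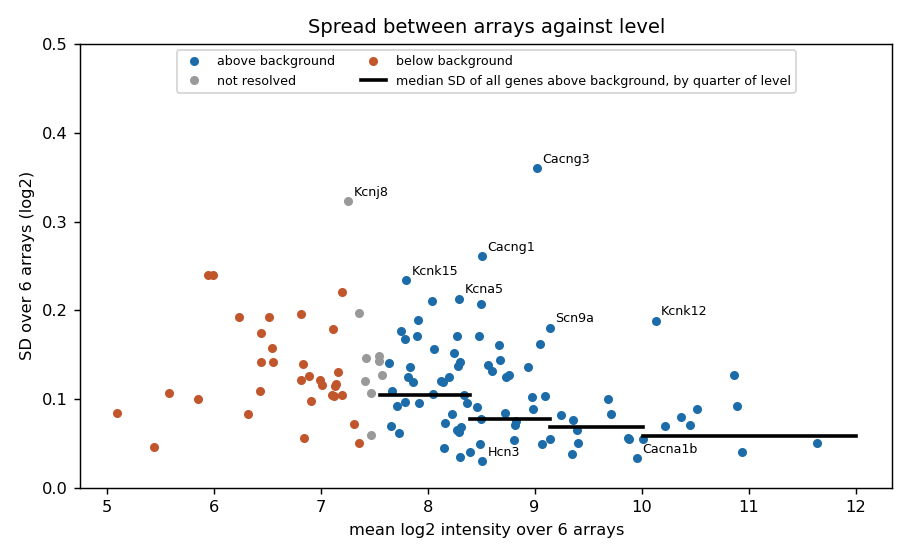
SD over 6 arrays against mean log2 intensity for the 123 channel genes, coloured by call, with the median SD of all genes above background in 4 bins of level as black bars (the last bar is drawn up to 12). Cacng3 stands highest at 0.36, and the steadiest channels lie at 0.030 to 0.034.

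Replicate 8 was the array in which channels were most often lowest. It held the lowest value in 28 of the 82 channels above background (34.1%, beside 25.1% of all genes above background) and in 24 of the 41 others (58.5%, beside 54.5% of genes not above background). This followed level: replicate 8 was lowest in 21 of 35 channels of the lowest bin (60%, genes 48.2%) and highest in 5 of 9 channels of the top bin (55.6%, genes 33.9%). The channels not above background averaged 6.68 in replicate 8 and 6.90 in replicate 5, and the olfactory receptor genes had their lowest and highest means in the same arrays. With replicate 8 left out, 83 channels were above background, the 82 and Kcng1.

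Of the 8 class means over channels above background, 5 were lowest in replicate 8 (Kv, Kv auxiliary, Kir, K2P and Hcn) and 3 in replicate 4. K2P channels ranged from 8.44 in replicate 8 to 8.69 in replicate 6 and inward rectifiers from 8.05 in replicate 8 to 8.27 in replicate 6. Calcium channels stayed within 9.34 to 9.40, with replicate 2 the highest, and Kv channels within 8.61 to 8.74. The sodium channel mean was 8.93 in replicate 4 and 9.09 in replicate 7, and it was not lowest in replicate 8. The means of neuronal markers showed a similar low end: the mean of the 7 pan-neuronal markers was 11.95 in replicate 4 and 12.14 in replicate 8, and that of the 6 motor neuron markers 9.17 in replicate 4 and 9.41 in replicate 8. Single markers did not all share it: Isl1 and Slc5a7 were lowest in replicate 4, Mnx1, Lhx3 and Chat in replicate 7, and Prph in replicate 5.

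**Figure D4:**
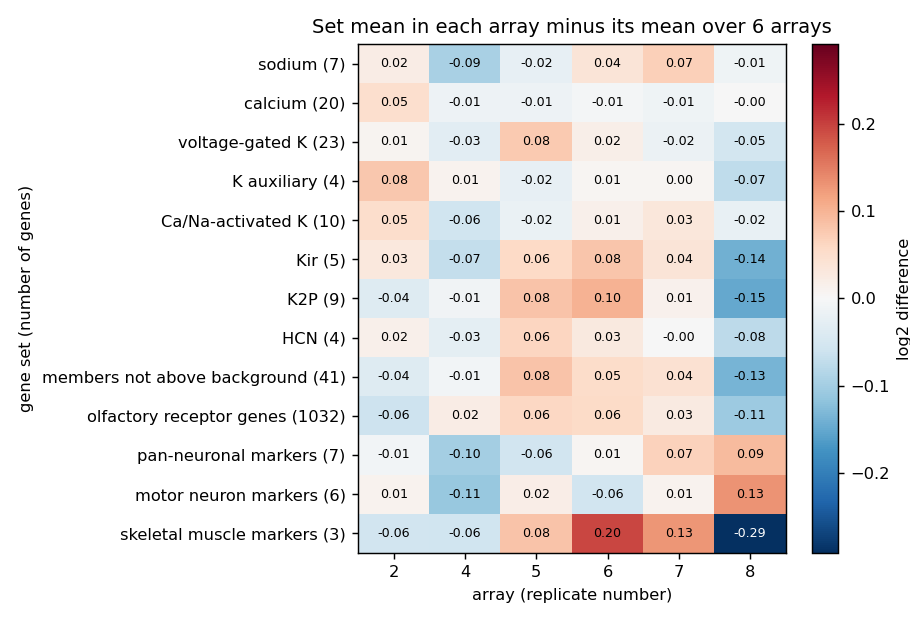
Mean log2 intensity of each set of genes in each array minus the mean of the set over the 6 arrays, with the number of genes in brackets and rows for markers and olfactory receptor genes. The 8 channel classes count members above background. K2P and Kir channels, members not above background and olfactory receptor genes are lowest in replicate 8, where the means of the neuronal markers are highest.

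**Figure D5:**
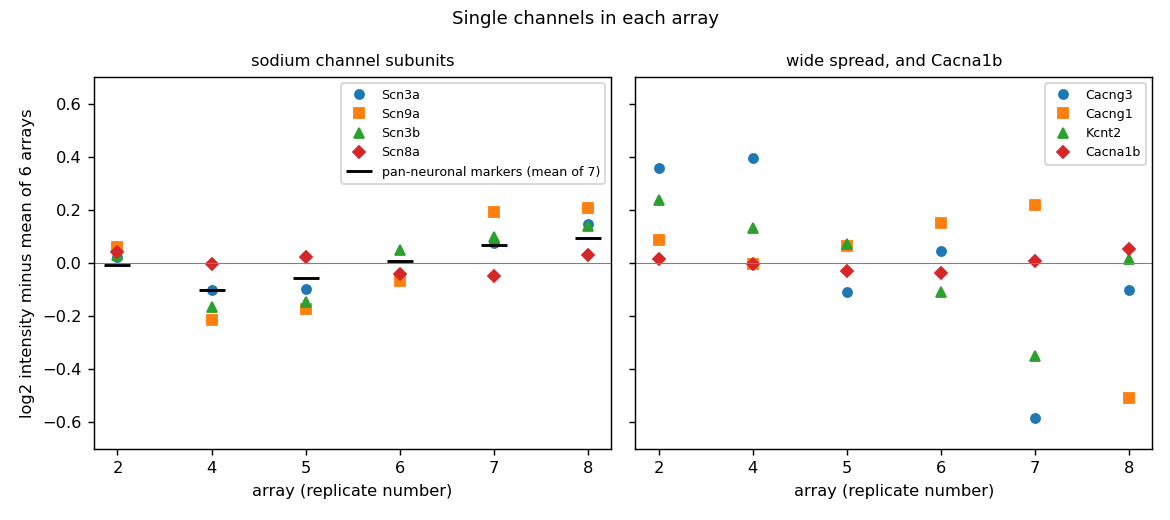
Log2 intensity of single channels in each array minus the mean of 6 arrays. The left panel has 4 sodium channel genes and, as black dashes, the mean of 7 pan-neuronal markers, and the right panel has 3 channels of wide spread and Cacna1b. Scn3a, Scn9a and Scn3b are lowest in replicate 4 and highest in replicate 8, Scn8a is flat, and Cacng3 and Cacng1 have their low values in different arrays.

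The study corrected every gene for batches of neurons by the levels of Olig2, Mnx1, Isl1 and Lhx3, genes of motor neurons and their progenitors. Whether the channels followed these genes over the 6 arrays was therefore tested by limma as a slope on their 4-gene mean. The study fitted its own model to assays with non-carrier serum from several batches of neurons, so this slope is not the study's correction. No channel was called at an adjusted p of 0.05, and of all 19609 genes tested 0 were (0%). At an unadjusted p under 0.05 there were 4 channels (3.25%), beside 4.02% of all genes. Among them were Kcnv1, Kcns2 and Kcnk10, named after their values were seen, with positive slopes (adjusted p = 0.9997 for each). With Isl1 alone as the covariate there were 14 channels (11.4%, beside 6.68% of all genes), and 1 gene, not a channel, was called. Without replicate 8 there were 10 channels (8.13%), beside 7.39% of all genes, and none was called. With the mean of the 7 pan-neuronal markers in place of the 4 genes, a covariate chosen after the values were seen, 8 channels had an unadjusted p under 0.05 (6.5%, beside 5.63% of all genes), and the smallest adjusted p of a channel was 0.235. The 6 arrays leave such slopes imprecise, and a relation that was not called is not shown to be absent.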

How the data were processed

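RNA of 6 samples was hybridized to Affymetrix mouse exon arrays. The deposited table holds 1 intensity per gene and array on a linear scale. Per the study's methods, the authors obtained it by Robust Multi-array Averaging (RMA) in Aroma Affymetrix as the mean over the exons of a gene, and the submitters' processing notes name Affymetrix Expression Console and RMA. Which arrays were normalized together, and the genome build, are not given in the sources used here, nor is any batch. RMA pulls arrays towards a common distribution, so differences between arrays that touch all genes are removed from the values.

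Intensities were taken to log2 with no pseudocount (Python 3.11.15, pandas 2.3.3). Members were taken by name. The members, the lists of markers and partners and the tests were chosen with earlier results of these data known. Background was the 95th percentile of the means of 1032 olfactory receptor genes. Each of 19613 genes was tested against it, two-sided, by limma 3.58.1 (R 4.3.3, trend in eBayes) with Benjamini-Hochberg adjustment over all genes, after the scripts were tested on simulated data. Slopes on the mean of the 4 genes of the batch correction in the study (Isl1, Lhx3, Mnx1 and Olig2) were fitted likewise. A rule picked genes to name. It took the highest 3 above background of each subclass and those nearest the background level. It also took those with the largest or smallest SD or an outlying array, and a fixed list of neuronal and muscle channels. Of that list Kcnd2, Kcnj6 and Kcnk9 were not analysed here. Other channels were named by call, range or mean, some with the SD. The alternatives were other background percentiles, other background genes, centring, quantile normalization, a pseudocount of 16, no mean-variance trend, current symbols, and leaving out each array. The precision is limited by the number of arrays, which give no counts. The table held 0 columns from other samples. A description of promoters was void, since 89 of 123 members (72.4%) had a RefSeq window, and protein sequences were not used here. Some channels that the naming rule picked are not reported here by name, although they count in the totals.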

Additional observations from a re-analysis of the deposited data

Results flagged for a closer look

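In each channel above background, in the mean of each class and in the other sets screened (92 sets of 6 values), the gap between an extreme array and its nearest neighbour was divided by the range. It passed Dixon's 95% critical value for 6 samples in 5 sets. Chance flags about 1 in 20 sets, which is 4.6 of 92, and the share among channels above background (4.88%) was below that among all genes above background (6.87%).

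The ratio was 0.725 for Cacnb2, a calcium channel beta subunit, with replicate 5 low at 8.97. It was 0.694 for Cacng1, with replicate 8 low and the other arrays at 8.50 to 8.73. It was 0.673 for Kcna2, an axonal Kv1 channel, with replicate 6 high at 8.64. It was 0.79 for Kcnc1, a Kv3 channel, with replicate 7 low at 8.39. For the mean of the 20 calcium channel genes above background it was 0.807, with replicate 2 high at 9.40 and the other 5 arrays at 9.34 to 9.35. The arrays differed from set to set, and each of the 4 genes was above background on all 6 arrays.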

How the results depend on the processing

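No paired analysis was possible because the labels give a single group. The count of channels above background was 82 to 85 under every alternative but the background percentile and the call without a test (87), and leaving out each array gave 82 to 83. With the 90th percentile (7.05) it was 93 (75.6%, beside 70.6% of all genes). With the 99th it was 47 (38.2%, beside 46.8%), made up of 17 calcium, 11 Kv, 5 calcium- or sodium-activated, 4 sodium, 4 K2P, 3 Hcn, 2 Kv auxiliary genes and 1 inward rectifier, and these 47 were above under every alternative.

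Of the channels that the rule for named genes picked and that are reported here, the mean minus background (log2) turned negative at the 99th percentile for Scn2b (-0.46), Scn4a (-0.78), Cacna1i (-0.28), Kcna1 (-0.49), Kcna5 (-0.034), Kcnc2 (-0.022), Kcnd1 (-0.18), Kcnh4 (-0.028), Kcnh6 (-0.057), Kcns1 (-0.85), Kcnab3 (-0.54), Kcnip3 (-0.18), Kcnmb2 (-0.054), Kcnmb4 (-0.69), Kcnn2 (-0.033), Kcnt1 (-0.62), Kcnj5 (-0.046), Kcnj10 (-0.86), Kcnk1 (-0.66), Kcnk7 (-0.28) and Kcnk15 (-0.53). At the 90th, among the same channels, it turned positive for Cacna1d (0.31), Cacna1s (0.094), Cacna2d4 (0.38), Kcng4 (0.31), Kcnh1 (0.27) and Kcnk6 (0.37). These follow from moving the level itself. Channels outside that rule are not listed here, and those with means between 7.47 and 8.33 also fell under the level at the 99th percentile. Cacna2d4 turned positive with vomeronasal and taste receptors added to the background (0.013), with which Scn4a, Kcng1 and Kcnip2 were called above. With each array's own background Kcnj10 (-0.018) and Kcns1 (-0.013) turned negative, as did Kcnj10 with quantile normalization (-0.0039) and with the pseudocount (-0.00082). Leaving out an array gave -0.039 to 0.049 for Kcnj10 and -0.0032 to 0.035 for Kcns1, and the cause was not tested. The median SD stayed within 0.083 to 0.11, and 0 channels were called in the relation to the 4-gene mean under every alternative run.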
